A study of Mus musculus with 21 samples.

Results

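LDB1 is an adaptor protein that binds no DNA by itself. It joins LIM-domain proteins, among them the LIM-homeodomain factor ISL1, and its self-association is known to bring distant regulatory elements together. In pancreatic islets ISL1 is a known partner of LDB1, and in other tissues LDB1 is known to reach DNA through LMO proteins or other LIM-homeodomain factors. The regions described here are the LDB1 peaks at which the ISL1 list holds no peak, called LDB1-only peaks below. They were chosen by comparing the positions of 2 deposited peak lists from chromatin immunoprecipitation with sequencing (ChIP-seq): a peak was kept where 0 bases overlapped any ISL1 peak. Of 3359 LDB1 peaks, 2315 met this rule and 1044 were shared with ISL1. The LDB1-only share was 68.9% (exact Clopper-Pearson 95% interval 67.3% to 70.5%). The ISL1 list holds 2330 peaks, of which 1286 had no LDB1 peak, so both lists together hold 5689 peaks.

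Both ChIP samples came from whole islets of male wild-type CD1 mice aged 8 to 10 weeks, with 1 sample for each protein. An antibody labelled CLIM-2, another name of LDB1, was used for LDB1 and one against ISL1 for ISL1. The input chromatin was not analysed here. Whole islets hold α-, δ- and other cells beside β-cells, and a peak list does not say in which of them a region was bound. RNA-seq was done on other material, lineage-marked β-cells sorted from male mice of mixed SV/129 and C57Bl/6 background. Its groups were Ldb1-KO (8 libraries, genotype Ldb1L/L; Rosa26LsLeYFP/ LsLeYFP; MIP-CreERTm), Isl1-KO (5 libraries, Isl1L/L with the same reporter and Cre) and WT (5 libraries, reporter and Cre alone). MIP-CreERTm is a tamoxifen-dependent Cre recombinase under an insulin promoter, and all groups, WT included, carried it. Tamoxifen was given to Ldb1-KO and WT mice as 5 gavages at 150 µg per g, starting on day 28 and repeated starting on day 35, and cells were sorted at day 56. Isl1-KO mice received 100 µg per g in a single course and cells were sorted at day 49.

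Positions are given in build mm9, 1-based. With 1 ChIP sample per protein there is no replicate error for any peak, and intervals on shares of peaks cover counting error only. Scores and distances come from the lists that chose the regions, so they are given as descriptions, with no test. A region without a listed ISL1 peak is one at which no ISL1 peak reached that list, and ISL1 signal below the list's lowest score was not analysed here. Gene positions and genome sequence of build mm9 were not used here, so no nearby gene, expression value of a nearby gene or sequence is given for a region.

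LDB1-only peaks lay at the weak end of the LDB1 list. Each list gives a score per peak that is the authors' own, and every peak is 200 bases wide. The median score was 0.73 in LDB1-only peaks (95% order-statistic interval 0.73 to 0.79, n = 2315), against 1.16 in shared LDB1 peaks (1.16 to 1.22, n = 1044). The interquartile range was 0.67 to 0.91 in LDB1-only peaks and 0.91 to 1.60 in shared peaks. The full ranges overlapped, from 0.61 to 4.99 in LDB1-only peaks and from 0.61 to 7.92 in shared peaks. Only 6.39% of LDB1-only peaks scored above the median of the shared peaks. The medians of the ISL1 list differed in the same way: ISL1 peaks without LDB1 had a median score of 0.55 (n = 1286), against 0.71 in shared ISL1 peaks (n = 1044). The highest scores did not, since the top ISL1 peak, at 10.63, had no LDB1 peak and shared ISL1 peaks reached 4.89. A low median score was thus a feature of the unshared peaks of both lists.

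The scores stand on a ladder. Within rounding of 0.005, 98.5% of the 66 distinct LDB1 scores were whole multiples of 0.0609, so the list begins at 10 steps and ends at 130. The ISL1 scores stood in the same way on steps of 0.0324, from 14 to 328 steps, with 98.6% of 69 distinct values on a multiple. The sources used here do not say what a step counts, and this ladder was looked for after the scores were seen. Each step was chosen as the value that put most distinct scores on a multiple, so these shares are no test of the ladder. In these units the median LDB1-only peak stood at 12 steps, against 19 steps for the median shared peak. The lowest rung with more than a few peaks was a score of 0.67 (11 steps), which held 661 LDB1-only and 43 shared peaks. The next, 0.73, held 507 and 65. The 3 lowest scores together took 50.7% of LDB1-only peaks (1174) and 10.4% of shared peaks (109). The 2 classes drew level near a score of 1.10, with 52 LDB1-only and 54 shared peaks.

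**Figure D1:**
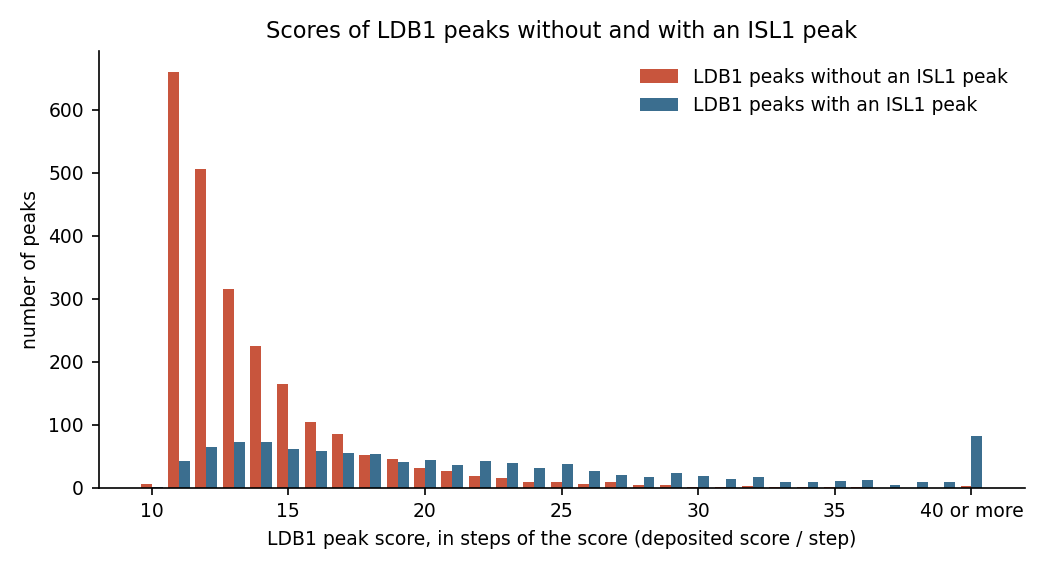
Number of LDB1 peaks (vertical axis) at each score, in steps of the deposited score (horizontal axis, 40 or more steps pooled), for LDB1-only peaks and for shared peaks. LDB1-only peaks pile up at 11 and 12 steps (661 and 507 peaks), while the shared peaks spread over a long upper tail.

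The share of LDB1-only peaks was lower toward the top of the list. The list was cut into parts in its deposited order, so peaks of equal score can stand in neighbouring parts. In the bottom 10% of the list, with scores of 0.61 to 0.67, 94.3% of 335 LDB1 peaks had no ISL1 peak (95% interval 91.3% to 96.6%). In the part of 336 peaks just above the middle of the list, which spans scores of 0.85 to 0.91, the share was 75.3%. It was 33.6% (28.6% to 39.0%) among the 336 peaks that follow the top 10%. In the top 10% itself, with scores of 1.52 and above, it was 11.0% of 336 peaks (7.87% to 14.9%). Of the first 100 LDB1 peaks by rank, 3 were LDB1-only and 97 shared. At a score of at least 2, 7 of 156 LDB1 peaks were LDB1-only.

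**Figure D2:**
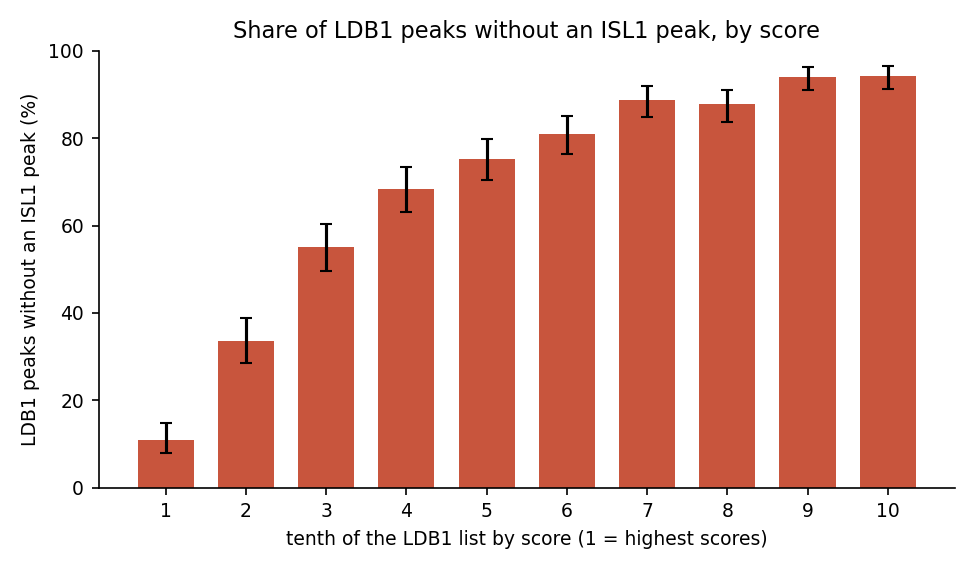
Percent of LDB1 peaks that have no ISL1 peak (vertical axis) in 10 equal parts of the LDB1 list by score (horizontal axis, 1 holds the highest scores); error bars are exact 95% binomial intervals. The share is 11.0% in part 1 and 94.3% in part 10.

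Only 7 LDB1-only peaks reached a score of 2, and 3 of these stood far above the others. The highest was chr2:77771780-77771979, at a score of 4.99 (82 steps), which placed it 7th in the whole LDB1 list. A second strong region, chr2:77744942-77745141, at 3.35 and rank 26, lay 26638 bases from it, and each was the other's nearest LDB1 peak. Their nearest ISL1 peak, at a score of 0.49 near the floor of the ISL1 list, lay 719849 and 746687 bases away. This pair was thus strong in LDB1 and far from any listed ISL1 peak.

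The other member of the leading trio was of another kind. The region chr16:23842795-23842994, at a score of 3.41 and rank 25, had an ISL1 peak only 37 bases beyond its edge. That ISL1 peak scored 2.20 and ranked 20th in its list. This region was counted as LDB1-only because the 2 windows of 200 bases did not touch, and the shared LDB1 peak nearest to it, at a score of 1.58, lay 8606 bases away.

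The next 7 by rank scored between 1.95 and 2.19. The region chr9:68082554-68082753 scored 2.19 and lay 268305 bases from the nearest ISL1 peak. The regions chr11:32370369-32370568, chr16:11278903-11279102 and chr2:34107964-34108163 scored 2.13, 2.07 and 2.01. Their nearest ISL1 peaks lay 32244, 226485 and 34425 bases away, and each of these ISL1 peaks was itself shared with an LDB1 peak. At 1.95 stood chr3:124720435-124720634, chr5:142633237-142633436 and chr6:141052210-141052409. Of these 7, 2 therefore had an ISL1 peak within 50000 bases, and 5 did not.

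Most LDB1-only peaks were far from ISL1 peaks, and about as far as shared peaks were from their next one. The median gap between the edges of an LDB1-only peak and the nearest ISL1 peak was 285101 bases (95% interval 260499 to 303488). For shared LDB1 peaks, the gap to the nearest ISL1 peak other than their own had a median of 251090 bases (218463 to 279637), and the 2 intervals overlapped. The interquartile range was 82976 to 623008 bases in LDB1-only peaks and 77318 to 617366 in shared peaks. An ISL1 peak lay within 100000 bases of 649 of the 2315 LDB1-only peaks, and a further one within that distance of 299 of the 1044 shared peaks. Farther than 1000000 bases from any ISL1 peak lay 333 LDB1-only peaks, or 14.4%, and their median score, 0.73, was that of LDB1-only peaks as a whole. The farthest, chrX:66563730-66563929, scored 1.16 and lay 8190585 bases from the nearest ISL1 peak. The next were also on chromosome X, which has 25 ISL1 peaks, at 6486352 and 6289732 bases.

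**Figure D3:**
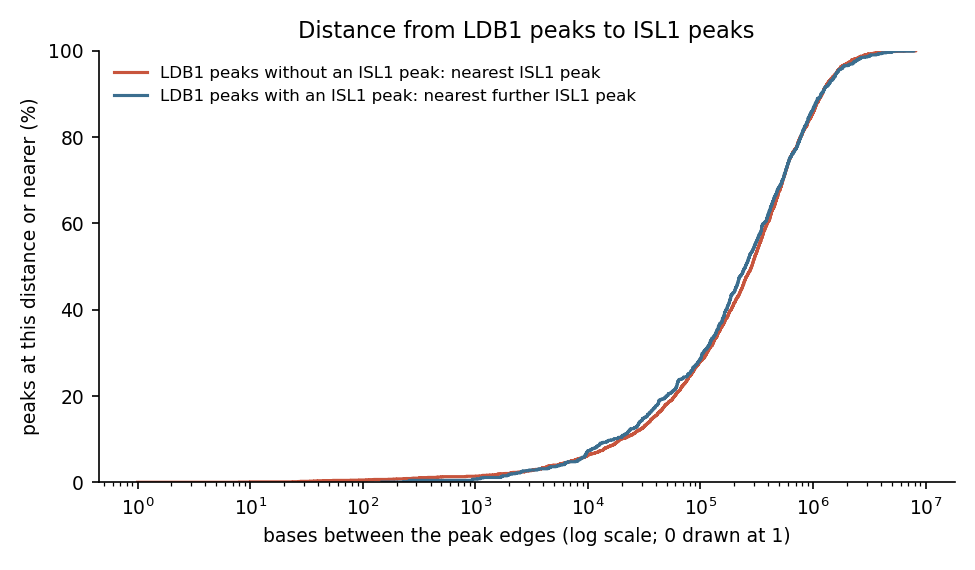
Cumulative percent of peaks (vertical axis) against the number of bases between peak edges (horizontal axis, log scale), from LDB1-only peaks to the nearest ISL1 peak and from shared LDB1 peaks to the nearest ISL1 peak other than their own. The curves run close together, with medians of 285101 and 251090 bases.

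A small number of LDB1-only peaks stood directly beside an ISL1 peak. An ISL1 peak lay within 5000 bases of 93 of them (4.02%), within 1000 bases of 33 and within 200 bases of 18, so 18 of the 33 within 1000 bases were within 200. Of shared peaks, 38 had a further ISL1 peak within 5000 bases (3.64%), 8 within 1000 and 1 within 200. The last counts are limited by the list itself, since no 2 ISL1 peaks lay less than 181 bases apart. The region nearest to the rule's limit, chr5:45986958-45987157, scored 1.10 and touched an ISL1 peak of score 0.52 with a gap of 0 bases. Next came chr13:24055680-24055879, which scored 1.28 at a gap of 8 bases, and chr16:21831705-21831904, which scored 0.85 at 10 bases. Just on the other side, the shared peak chr14:85908506-85908705 scored 1.95 and overlapped its ISL1 peak by 6 bases. The shared peak chr10:69667327-69667526 scored 0.79 and overlapped by 8. Such cases were few among shared peaks, whose median overlap was 168 of 200 bases, with 92.5% overlapping by at least 100.

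Stronger LDB1-only peaks were more often near an ISL1 peak. In the top 20% of the LDB1 list, 12 of 150 LDB1-only peaks (8.00%) had an ISL1 peak within 5000 bases, and in the bottom 20%, 13 of 632 (2.06%). The 3 equal parts between them gave 5.78%, 4.76% and 3.20% in falling order of score. These shares rest on few peaks. The 12 of the top 20% include regions with gaps of only 8, 24, 34 and 37 bases, which narrowly missed the overlap rule. In shared peaks the share with a further ISL1 peak within 5000 bases was 4.79% in the top 20%, 2.33% and 2.72% in the next parts, higher again in the part after those, and 0 of 39 in the bottom 20%. The median gap was 176342 bases in LDB1-only peaks of the top 20% and 329555 in those of the bottom 20%. In shared peaks the median gap to a further ISL1 peak ran the other way, with 266645 bases in the top 20% and 159181 in the bottom 20%. The 93 LDB1-only peaks within 5000 bases of an ISL1 peak had a median score of 0.79 (0.79 to 0.91), one rung above the 0.73 of LDB1-only peaks as a whole. The ISL1 peaks next to these 93 had a median score of 0.62, the same as the ISL1 list as a whole. For 52.7% of the 93 (42.1% to 63.1%) the nearest ISL1 peak was shared with another LDB1 peak. Over all LDB1-only peaks the nearest ISL1 peak was shared for 48.2%, and of all ISL1 peaks 44.8% were shared. The interval held both values.

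LDB1-only peaks were mostly solitary. Another LDB1 peak lay within 25000 bases of 15.2% of LDB1-only peaks (13.7% to 16.7%), against 20.5% of shared peaks (18.1% to 23.1%). With peaks of both lists counted as neighbours at 25000 / 2 bases, the shares were 12.2% of LDB1-only peaks (10.9% to 13.6%) and 16.3% of shared peaks (14.1% to 18.7%). The median gap to the nearest other LDB1 peak was 171753 bases in LDB1-only peaks and 147198 in shared peaks. That nearest LDB1 peak was LDB1-only for 67.0% of LDB1-only peaks and for 68.7% of shared peaks, both close to the 68.9% of the whole list. The 95% intervals of these shares, 65.0% to 68.9% and 65.8% to 71.5%, overlapped.

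Where LDB1 peaks did cluster, LDB1-only peaks stood both with their own kind and with shared peaks. Joining peaks with no gap above 25000 / 2 bases gave 172 groups of at least 2 LDB1 peaks, which held 219 LDB1-only peaks, 124 of them in groups without a shared peak. The 219 were 9.46% of LDB1-only peaks, and the groups also held 141 shared peaks, 13.5% of shared peaks. Of the 172 groups, 62 held only LDB1-only peaks, 87 held both classes and 23 only shared peaks. No group held more than 2 LDB1-only peaks, and the largest held 4 LDB1 peaks. In 67 of the 87 mixed groups the strongest LDB1-only peak scored below the strongest shared peak, in 17 above it, and in 3 they were equal. The median of the strongest score in a mixed group was 0.79 for LDB1-only peaks and 1.16 for shared peaks, a gap like that between the medians of the whole classes (0.73 and 1.16). The 124 peaks in groups of LDB1-only peaks had a median score of 0.79 and reached 1.95.

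On a longer scale, LDB1-only peaks filled some stretches without a shared peak. Along the chromosomes they formed 736 runs of consecutive LDB1 peaks, with a median of 2 peaks and a maximum of 18. There were 26 runs of 10 or more, which held 318 LDB1-only peaks. Since 68.9% of all LDB1 peaks were LDB1-only, such runs also arise where the 2 classes stand in random order. Whether the runs seen here differ from such an order was not tested. The longest run, of 18 peaks, covered chr5:102129640-113198967, where 6 ISL1 peaks without LDB1 also stood and the highest LDB1 score was 1.16. A run of 13 peaks at chr12:40684976-51028995 held 0 ISL1 peaks without LDB1 and reached a score of 1.58. Windows of 1000000 bases that start at an LDB1-only peak held a median of 2 such peaks. The fullest, chr5:132062041-132767248, held 8 LDB1-only peaks over 705208 bases, with 0 shared LDB1 peaks and 0 ISL1 peaks. Its 8 scores were 0.67 in 4 peaks, 0.73 in 1, 0.79 in 2 and 0.91 in 1. This dense stretch was thus made of weak peaks, none above 15 steps. By contrast, the window chr9:67613761-68518298 held 7 LDB1-only peaks with a highest score of 2.19, beside 1 shared LDB1 peak and 2 ISL1 peaks.

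LDB1-only peaks were found on each of the 20 chromosomes with LDB1 peaks, and on none of them did they fall below 61.6% of the LDB1 peaks. The share was highest on chromosome 1, at 75.5% of 261 (69.8% to 80.6%), and next on chromosome 9, at 74.1% of 170. It was lowest on chromosome 19, at 61.6% of 86 (50.5% to 71.9%), and on chromosome 16, at 62.1% of 132. On 19 of the 20 chromosomes the interval held the overall 68.9%, and the exception was chromosome 1. By chance alone at most about 1 in 20 such intervals is expected to miss a fixed share. The overall share here includes each chromosome's own peaks. The median LDB1-only score varied little, between 0.73 and 0.79 on each chromosome. The median gap to the nearest ISL1 peak varied more, between 210651 bases on chromosome 8 and 516288 on chromosome X, and chromosome 15 came second highest at 479512. Of the 24 LDB1-only peaks on chromosome X and the 88 on chromosome 7, 0 lay within 5000 bases of an ISL1 peak. The share over all LDB1-only peaks was only 4.02%, so few were to be expected on either.

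**Figure D4:**
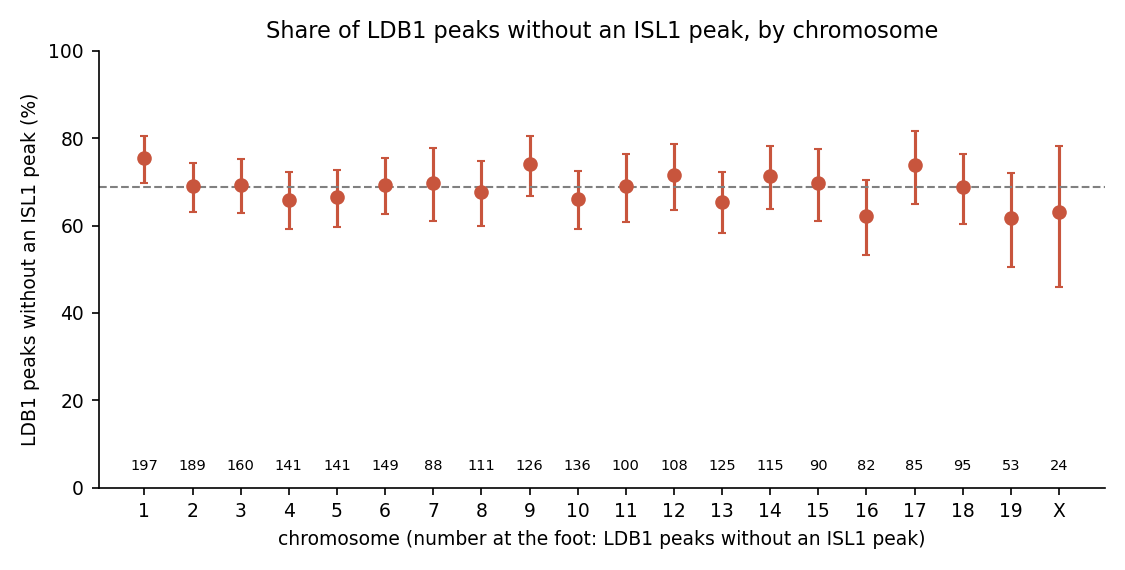
Percent of LDB1 peaks that have no ISL1 peak (vertical axis) on each chromosome (horizontal axis), with exact 95% binomial intervals; the dashed line is the share over all chromosomes and the numbers at the foot count LDB1-only peaks. Shares run between 61.6% on chromosome 19 and 75.5% on chromosome 1.

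Since LDB1 needs partners to reach DNA, the RNA of those partners was read in the sorted β-cells. The 23 genes of the list encode LDB adaptors, SSBP proteins, LIM-homeodomain and LMO proteins, and RLIM, a ubiquitin ligase that targets LDB proteins. Of the SSBP proteins, those other than SSBP1 are known to stabilise LDB proteins. Values are log2(normalized value + 1), and differences are on that scale, which understates changes of weakly expressed genes. In bulk RNA, fewer cells of a type and less RNA per cell cannot be told apart. Over 16 β-cell genes, library means ran between 8.81 and 9.82 in Ldb1-KO libraries, 9.56 and 10.53 in Isl1-KO libraries, and 10.95 and 11.33 in WT. Over the 7 of 8 listed acinar genes in the table, library means ran between 2.33 and 5.87 in Ldb1-KO libraries, 1.59 and 4.84 in Isl1-KO libraries, and 1.39 and 10.17 in WT, with a WT median of 2.11. The part of these lists in the results below was not tested.

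Among LIM-homeodomain genes other than Isl1, few were detected in these cells. Isl2, Lhx2, Lhx4, Lhx8, Lhx9 and Lmx1a were listed at 0 in each of the 18 libraries, and Lhx3 and Lhx5 in 17 of 18. Lhx1, Lhx6 and Lmx1b were above 0 in 5 of 5 WT libraries, but low, with WT means of 3.64, 1.63 and 1.85 against 9.55 for Isl1. Of LMO genes, Lmo1, Lmo2 and Lmo4 were above 0 in 5 of 5 WT libraries and Lmo3 in 0 of 5. The WT means of Lmo1, Lmo2 and Lmo4 were also low, at 2.80, 2.53 and 2.61.

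Of the 23 genes, 15 passed the filter on low values, and 5 of the 15 passed the test between Ldb1-KO and WT (limma, Benjamini-Hochberg adjusted p under 0.05), 3 higher and 2 lower. The 2 lower genes were Lmo1 and Ldb1, the gene targeted in Ldb1-KO mice, so the call of Ldb1 is not independent of the design. Of the 3 higher genes, Lmo3 passed the filter only through knockout libraries, since it was at 0 in each WT library. Over all 13501 genes tested, 21.7% passed. The median log2 difference was 0.16 over the 15 genes and -0.01 over all genes tested.

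Ldb1 itself lay between 5.58 and 6.88 in the Ldb1-KO libraries, with a median of 6.45. In WT it lay at 7.60, 7.59, 7.57, 7.11 and 7.66. The groups did not overlap, and Ldb1 fell by 1.11 (SE 0.18, limma adjusted p = 4.35e-05). The table gives 1 value for the whole gene, so reads from exons that a deletion leaves in place count too.

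Lmo1, which encodes a LIM-only protein, was listed at 0 in 7 of 8 Ldb1-KO libraries and at 0.89 in the other. In WT it lay at 2.83, 1.82, 3.33, 2.79 and 3.25. It was also at 0 in 4 of the 5 libraries labelled Isl1-KO. Lmo1 fell by 2.69 in Ldb1-KO (SE 0.36, limma adjusted p = 5.66e-06), and with a pseudocount of 10 the difference was -0.69.

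Isl1 lay between 9.88 and 11.0 in Ldb1-KO, with a median of 10.6. In WT it lay at 9.58, 9.66, 9.61, 9.36 and 9.53, below each Ldb1-KO library. It rose by 1.01 in Ldb1-KO (SE 0.15, limma adjusted p = 2.78e-05). In the libraries labelled Isl1-KO, Isl1 itself lay between 9.04 and 9.66, which overlapped WT, and the difference from WT was -0.22 (SE 0.17, limma adjusted p = 0.431). The RNA value of the whole gene thus did not set these libraries apart from WT, and here too reads from exons left in place would count. Isl1 is known to be expressed in α- and δ-cells as well as β-cells. Over 5 of 6 listed α-cell genes, library means ran between 6.11 and 7.42 in Ldb1-KO and between 5.07 and 5.57 in WT, where 1 of the 5 was at 0 in every library. Over 5 genes of δ-, PP- and ε-cells they ran between 5.36 and 6.63 in Ldb1-KO and between 4.21 and 4.85 in WT. Over 5 duct genes they ran between 3.86 and 4.44 in Ldb1-KO and between 2.76 and 3.56 in WT. In none of these 3 lists did the ranges overlap, and their part in the Isl1 difference was not tested.

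Ssbp2, which encodes a protein that binds and stabilises LDB1, averaged 7.01 ± 0.20 in Ldb1-KO (SD, n = 8) and 6.45 ± 0.33 in WT (SD, n = 5). It was above the WT mean in 8 of 8 libraries and rose by 0.56 (SE 0.15, limma adjusted p = 0.00724). The ranges overlapped, from 6.65 to 7.26 in Ldb1-KO and from 6.08 to 6.97 in WT. Lmo3 lay between 0.78 and 2.54 in Ldb1-KO, with a median of 1.02, against 0 in each WT library (limma adjusted p = 0.0268). It passed the filter on low values only through knockout libraries, so this p-value is not taken as support. Without Ldb1-KO replicate 2, or without WT replicate 1 or 5, the Lmo3 call was lost (limma adjusted p = 0.0547, 0.0515 and 0.0535). The authors' deposited table gave log2 fold changes of -1.17 for Ldb1, -2.59 for Lmo1 and 0.93 for Isl1. For Ssbp2 and Lmo3 the authors' deposited table gave a false discovery rate of 0.0784 and 0.118, so neither reached 0.05 there.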

How the data were processed

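The deposited peak lists hold a position and a score per peak for 1 LDB1 and 1 ISL1 sample. The unit of the score is not stated by the authors. The submitters' processing notes name HOMER, edgeR and the build mm9, with no role. Peak names call each list a pool, and the sources used here do not say what was pooled. Overlaps of at least 1 base were found with bedtools 2.31.1 and distances with Python 3.11.15 (numpy 2.4.6, pandas 2.3.3). Intervals on shares are exact (Clopper-Pearson, scipy 1.17.1) and those on medians are binomial order-statistic intervals.

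The authors' deposited expression table holds log2 values, read from the values as log2(normalized value + 1). The normalization is not stated, and the highest value over all libraries was 18.29. It also holds the authors' log2 fold changes and p-values. Depth is unknown, and 13353 to 14129 genes per library lay above 0. The 13501 of 21913 genes whose normalized value averaged 1 or more were tested in 1 fit of all 18 libraries with limma 3.58.1 (trend and robust settings, statmod 1.5.0, R 4.3.3), tested on simulated data. The labels do not say that libraries came from separate mice, so p-values measure the spread between libraries. Of the contrasts with Isl1-KO, that of Isl1 itself is reported. 0 columns of per-sample values were left unused.

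The regions and gene lists were chosen with earlier results of these data known. Regions named are the 10 highest-scoring, those nearest the overlap limit on each side, and extremes of distance, runs and density chosen after their values were seen. Genes named are those of the LIM and LDB list, the rule set for the case that gene positions are not used. Genes near peaks and motifs in peaks were planned and not run, since the reference tables are of build GRCm38.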

Additional observations from a re-analysis of the deposited data

Results flagged for a closer look

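Of 44 sets of values of 1 gene in 1 group, 4 held a library whose gap to its nearest neighbour took up most of the range of its group (Dixon's criterion at 95%). In continuous values chance flags about 1 in 20 sets, a rate not checked here, and it is not meant for a single value above 0 among zeros, as in both Lmo1 sets. Ldb1 in WT replicate 4 was 7.11, below the next library at 7.57. Lmo1 was 0.89 in Ldb1-KO replicate 2 and 1.00 in Isl1-KO replicate 5, where the other libraries of each group were listed at 0. Lmo4, which encodes another LIM-only protein, was 1.03 in Isl1-KO replicate 1, below the next library at 1.90.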

How the results depend on the processing

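Widening the ISL1 peaks by 100, 500 or 1000 bases gave 2302, 2285 and 2282 LDB1-only peaks, against 2315, and requiring an overlap of at least 100 bases for a shared peak, an alternative added after seeing the data, gave 2393. With only the 1165 higher-scoring ISL1 peaks the number was 2603 and the median distance to an ISL1 peak 614272 bases, since fewer ISL1 peaks were left. With only LDB1 peaks above the middle rank the number was 817 and the median score 0.97, by construction. Another peak of either list lay within 5000 bases of 6.70% and within 25000 bases of 19.1% of LDB1-only peaks, against 12.2% within 25000 / 2 bases. Of the LIM and LDB genes, 3 were called between Ldb1-KO and WT with a filter of 5 on the mean value, which removes Lmo1 and Lmo3, against 5. Leaving out 1 library at a time gave 4 or 5, and without Ldb1-KO replicate 3 Lmo3 fell below the filter. With a pseudocount of 10 the count was 4 and Lmo3 had a limma adjusted p of 0.0834. With the replicate number as a block 7 were called. Correlations of deviations between Ldb1-KO and WT libraries of the same number ran between -0.12 and 0.26, so the numbers were not taken to pair the samples. The calls of Ldb1, Isl1 and Ssbp2 held with the same direction in each setting run, and that of Lmo1 in each setting that kept it past the filter. Other settings for genes near peaks were not run, since gene positions of build mm9 were not used. The number of score steps limits how finely weak peaks can be ranked: 661 LDB1-only peaks share the score 0.67.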
